A study of Mus musculus with 4 samples.

Results

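The appetite peptide receptors described here are 10 genes, Mc3r, Mc4r, Npy1r, Npy2r, Npy5r, Ghsr, Glp1r, Hcrtr1, Hcrtr2 and Mchr1, chosen by symbol from the 16339 genes measured in the mouse hypothalamus. They were chosen for what they bind, by a rule that reads no measured value but was written with earlier results of these data known. All 10 were present in the table and all 10 had enough counts to be tested. The study asked how loss of Tas1r3, the taste receptor subunit shared by the sweet and umami receptors, changed the hypothalamus of mice on a western diet (WD). The hypothalamus of male C57BL/6 mice was taken for RNA sequencing, and 2 libraries are of Tas1r3-/- mice and 2 of their wild-type (WT) littermates. Both groups had received WD, a 60% fat diet with a 30% sucrose solution to drink, for 12 weeks, so the comparison is between genotypes under WD and holds no group on normal diet. The knockout is conventional, so the Tas1r3 gene was disrupted in every tissue and from development onward.

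Each of these receptors is a G protein-coupled receptor of neurons that respond to a feeding peptide. MC3R and MC4R bind the melanocortins cut from POMC, which restrain feeding, and the inhibitor AGRP. The NPY receptors bind neuropeptide Y, which promotes feeding, and GHSR binds the stomach hormone ghrelin, which does so as well. GLP1R binds a satiety peptide of the gut and brainstem, HCRTR1 and HCRTR2 bind the orexins, which link wakefulness to food seeking, and MCHR1 binds melanin-concentrating hormone. Orexins and melanin-concentrating hormone are made by neurons of the lateral hypothalamus.

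Levels are given as CPM, the estimated counts of a gene relative to the scaled size of its library, with replicates 1 and 2 of a group in that order. The named genes summed to between 5728729 and 6180137 estimated counts per library, and a count of 0 allows at most 0.485 to 0.524 CPM, a limit that covers counting error only. Tas1r3 itself was at 6.07 and 4.45 CPM in the WT WD libraries and at 1.12 and 1.23 CPM in the Tas1r3-/- WD libraries, so both knockout libraries were below both WT libraries. Both knockout values were above the limit for a count of 0, so some estimated counts of Tas1r3 remained there. The log2 difference of Tas1r3 was -2.13 ± 0.42 (SE), with an unadjusted p of 0.00404 and an edgeR adjusted p of 0.756 over 14344 genes, so it was not called. Without the library labelled WT WD replicate 2, whose tissue is described next, the difference was -2.33 ± 0.56 (edgeR adjusted p = 0.156). The study describes more mice per group than there are libraries here. Nothing in the sample labels says that the 2 libraries of a group came from separate animals, so p-values measure only the spread between these samples.

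One library went against its tissue label. In the library labelled WT WD replicate 2, all 16 hypothalamus markers were lower than in each of the other 3 libraries, with a summed level of 40.4 CPM against 1439 to 2043 CPM. Nkx2-1 and Nr5a1, transcription factors that define medial hypothalamic neurons, had 0 counts there. Among the most abundant of these markers, Pmch was at 6.66 CPM there against 373 to 768 CPM, Avp at 2.30 against 197 to 335 CPM and Pomc at 2.47 against 45.3 to 343 CPM. All 12 thalamus markers were higher there than elsewhere, with a sum of 3492 CPM against 608 to 849 CPM, and Prkcd, Calb2 and Slc17a6 were at 585, 583 and 529 CPM there. The summed choroid plexus markers reached 776 CPM there against 43.2 to 62.0 CPM, with 678 CPM from Ttr. Of the 9 choroid plexus markers, 7 were highest there, and Kl and Clic6 were not. The summed blood markers reached 1959 CPM there against 380 to 769 CPM. The 10 pan-neuronal markers summed to 7335 CPM there against 5323 to 5889 CPM, and 8 of them were highest there. Map2 was lowest there, at 652 CPM against 1069 to 1295 CPM. In Tas1r3-/- WD replicate 1 the summed pituitary markers, led by Gh, Prl and Cga, reached 1476 CPM, where the other 3 libraries held between 4.70 and 35.9 CPM. The summed striatum markers were also highest in that Tas1r3-/- WD library, at 579 CPM against 229 to 426 CPM. The largest departure from the tissue label was in WT WD. Each receptor difference is therefore given with and without the library labelled WT WD replicate 2. Leaving that library out did not make the marker lists equal between the groups. Without it the median log2 difference was -0.45 for the hypothalamus markers and 1.09 for the thalamus markers. The part of tissue makeup in the receptor values was not tested, with or without that library. In bulk tissue, fewer cells of a type and less RNA per cell cannot be told apart.

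No receptor gene was called different between Tas1r3-/- WD and WT WD mice. With edgeR's quasi-likelihood test, 0 of 10 had an adjusted p under 0.05 with a 1.5-fold change, and 0 of 10 had an unadjusted p under 0.05. DESeq2 and limma-trend also called 0 of the 10. Over all 14344 genes tested, edgeR called 0 (0%), DESeq2 called 8 (0.0558%), and 772 (5.38%) had an unadjusted p under 0.05. The mean was higher in Tas1r3-/- WD for 8 of the 10 receptors, beside 49% of all genes tested. The median log2 difference of the receptors was 0.37, beside -0.01 over all genes tested. It was 0.38 without Tas1r3-/- WD replicate 1, and -0.20 without the library labelled WT WD replicate 2. Most receptors were lowest in that library: 8 of the 10 were lower there than in each of the other 3 libraries, beside 34.6% of all genes tested and 30.6% of the 5063 genes in the receptors' range of mean level. The same 8 were at least 1.5-fold lower there than in WT WD replicate 1, beside 12.4% of all genes tested and 14.7% of those in that range. The sum over the 10 receptors was 123 CPM in WT WD replicate 1, 55.7 CPM in the library labelled WT WD replicate 2, and 111 CPM in both Tas1r3-/- WD libraries.

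**Figure D1:**
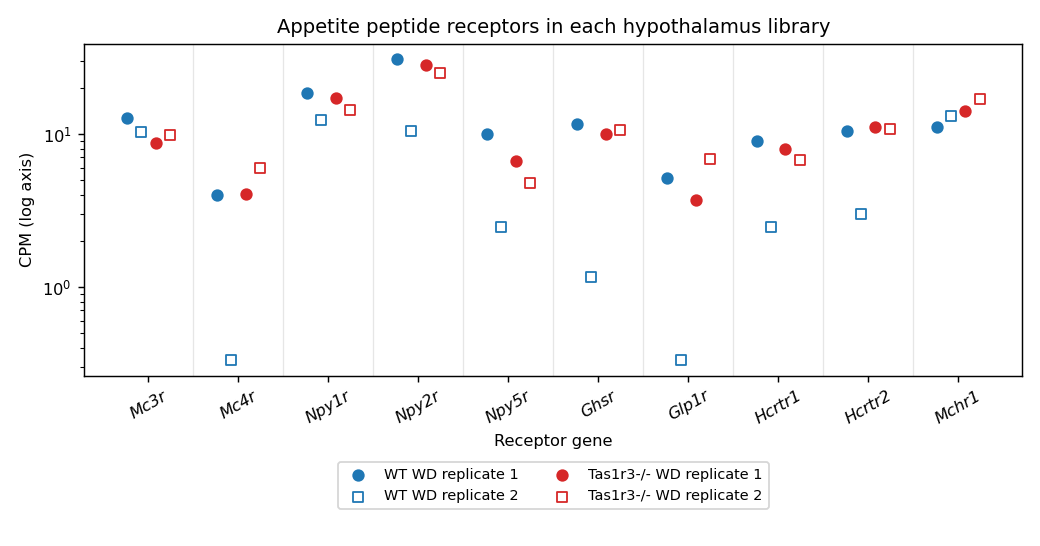
Level of each receptor gene (CPM, log axis) in each of the 4 libraries, with WT WD in blue, Tas1r3-/- WD in red, replicate 1 as filled circles and replicate 2 as open squares. The open blue square lies below the other 3 points for 8 of the 10 genes, and Mc3r and Mchr1 are the exceptions.

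The 2 melanocortin receptors stood near opposite ends of the receptors' range in the library labelled WT WD replicate 2. Mc3r, the receptor found on AGRP and POMC neurons themselves as well as on their targets, was at 12.6 and 10.2 CPM in the WT libraries and at 8.72 and 9.82 CPM in the knockout libraries. Both knockout libraries were below both WT libraries, with a small gap at the nearest pair. The log2 difference was -0.30 ± 0.24 (SE; edgeR adjusted p = 0.775), and -0.44 ± 0.28 without the library labelled WT WD replicate 2 (edgeR adjusted p = 0.535). Mc3r was not low in the library with few hypothalamus markers, where it had 98.4% of the mean of the other 3 libraries. Mc4r, the receptor through which melanocortins restrain feeding in the paraventricular nucleus, was at 3.95 and 0.330 CPM in the WT libraries and at 4.01 and 5.96 CPM in the knockout libraries. These levels rest on 23 and 2 estimated counts in the WT libraries and on 25.0 and 34 in the knockout libraries. Both knockout libraries were above both WT libraries, but WT WD replicate 1 and Tas1r3-/- WD replicate 1 were nearly equal. The log2 difference of Mc4r was 1.22 ± 0.94 (edgeR adjusted p = 0.773), and 0.33 ± 0.48 without the library labelled WT WD replicate 2 (edgeR adjusted p = 0.809). The ratio of that library to WT WD replicate 1 was 0.0834, with an exact 95% interval from 0.00953 to 0.338 that covers counting error only. Per kilobase of transcript, Mc3r exceeded Mc4r by 3.41 times in WT WD replicate 1 and by 2.32 and 1.76 times in the Tas1r3-/- WD libraries, and by 33.1 times in the library labelled WT WD replicate 2.

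The 3 neuropeptide Y receptors were all lowest in the library labelled WT WD replicate 2, to different extents. Npy1r, a receptor that mediates the feeding response, was at 18.6 and 12.2 CPM in the WT libraries and at 17.0 and 14.4 CPM in the knockout libraries. The knockout libraries lay between the WT libraries, and the log2 difference was 0.03 ± 0.27 (edgeR adjusted p = 0.980), or -0.24 ± 0.22 without the library labelled WT WD replicate 2 (edgeR adjusted p = 0.677). Npy2r, a receptor known as the presynaptic brake on NPY neurons, had the most counts of the 10, with 30.7 and 10.5 CPM in the WT libraries and 28.2 and 24.9 CPM in the knockout libraries. Here too the knockout libraries lay between the WT libraries. The log2 difference of Npy2r was 0.37 ± 0.50 (edgeR adjusted p = 0.853), and -0.21 ± 0.17 without the library labelled WT WD replicate 2 (edgeR adjusted p = 0.634), so its direction turned. Npy5r, a receptor that also mediates feeding, was at 9.96 and 2.47 CPM in the WT libraries and at 6.59 and 4.73 CPM in the knockout libraries. Among the 3 libraries that carried hypothalamus markers it spread most of the 10 receptors, with 2.10 times between its highest and lowest. Its log2 difference was -0.13 ± 0.68 (edgeR adjusted p = 0.968). Without the library labelled WT WD replicate 2 it was -0.81 ± 0.36, with an unadjusted p of 0.0494 and an edgeR adjusted p of 0.364. In that comparison 13.7% of all genes had an unadjusted p under 0.05, and Npy5r was the only 1 of the 10 receptors with one.

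Npy1r and Npy5r are neighbours on chromosome 8 and are read in opposite directions, with 8145 bases between them in GENCODE M39 on GRCm39. Npy5r spans chr8:67132549-67141218 on the minus strand and Npy1r spans chr8:67149364-67159731 on the plus strand. Their ratio per kilobase was not constant: Npy1r exceeded Npy5r by 1.19 times in WT WD replicate 1, 1.65 and 1.94 times in the Tas1r3-/- WD libraries, and 3.17 times in the library labelled WT WD replicate 2.

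The receptors for ghrelin and for glucagon-like peptide 1 were, with Mc4r, those lowest in the library labelled WT WD replicate 2 relative to the others. Ghsr was at 11.6 and 1.15 CPM in the WT libraries and at 9.96 and 10.5 CPM in the knockout libraries. The library labelled WT WD replicate 2 held 10.8% of the mean of the other 3, which were within 1.5-fold of each other. The log2 difference of Ghsr was 0.68 ± 0.92 (edgeR adjusted p = 0.851), and -0.19 ± 0.27 without that library (edgeR adjusted p = 0.804). Glp1r, which has the lowest level per length of the 10, was at 5.15 and 0.330 CPM in the WT libraries and at 3.71 and 6.84 CPM in the knockout libraries, on 30 and 2 and on 23.1 and 39 estimated counts. The groups overlapped. The ratio of the library labelled WT WD replicate 2 to WT WD replicate 1 was 0.0639, with an exact 95% interval from 0.00740 to 0.252. The log2 difference of Glp1r was 0.94 ± 1.03 (edgeR adjusted p = 0.819), and 0.02 ± 0.49 without that library (edgeR adjusted p = 0.988). Glp1r was also the only receptor that differed by at least 1.5-fold between the 2 Tas1r3-/- WD libraries, with a ratio of 1.84 for replicate 2 over replicate 1 and an exact 95% interval from 1.08 to 3.25. Of all genes tested, 9.54% differed by that much between those libraries.

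The 2 orexin receptors and the receptor for melanin-concentrating hormone bind peptides of the lateral hypothalamus, and they divided in the same way. Hcrtr1, the receptor selective for orexin A, was at 8.95 and 2.46 CPM in the WT libraries and at 7.93 and 6.73 CPM in the knockout libraries. The knockout libraries lay between the WT libraries, and the log2 difference was 0.35 ± 0.62 (edgeR adjusted p = 0.888), or -0.29 ± 0.33 without the library labelled WT WD replicate 2 (edgeR adjusted p = 0.741). Hcrtr1 lies on chromosome 4, as Tas1r3 does, at 25.9 Mb from it. Hcrtr2, which binds both orexins, was at 10.5 and 2.97 CPM in the WT libraries and at 11.1 and 10.7 CPM in the knockout libraries. Both knockout libraries were above both WT libraries, yet apart from the library labelled WT WD replicate 2 its values differed by only 1.06 times, the least of the 10 receptors. The log2 difference of Hcrtr2 was 0.70 ± 0.59 (edgeR adjusted p = 0.777), and 0.06 ± 0.27 without that library (edgeR adjusted p = 0.948). Mchr1 was at 11.0 and 13.0 CPM in the WT libraries and at 14.1 and 16.8 CPM in the knockout libraries. Both knockout libraries were above both WT libraries, and the library labelled WT WD replicate 2 was not low, at 93.0% of the mean of the other 3. The log2 difference of Mchr1 was 0.37 ± 0.22 (edgeR adjusted p = 0.756), and 0.49 ± 0.25 without that library, with an unadjusted p of 0.0780 and an edgeR adjusted p of 0.437.

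In all, both Tas1r3-/- WD libraries were above both WT WD libraries for Mc4r, Hcrtr2 and Mchr1, which is 3 of 10 beside 20.6% of all genes tested, and below for Mc3r, which is 1 of 10 beside 18.9%. Without the library labelled WT WD replicate 2, the mean in Tas1r3-/- WD was higher for 4 receptors and lower for 6, beside 50.4% of all genes with a higher mean, and the groups did not overlap for 9 receptors, beside 74.9% of all genes. No receptor was called in that comparison by edgeR, where 32 of 14714 genes (0.217%) were, and adjusted p-values of the receptors were between 0.364 and 0.988. With 1 WT library left, that library is assumed to vary like the Tas1r3-/- WD libraries. When WT WD replicate 1 was left out instead, so that the library labelled WT WD replicate 2 stood alone for WT, 6 receptors were called higher in Tas1r3-/- WD, namely Mc4r, Npy2r, Ghsr, Glp1r, Hcrtr1 and Hcrtr2, beside 7.55% of all genes called higher. Their log2 differences were then between 1.34 for Npy2r and 3.91 for Glp1r. The receptor calls thus depended on which WT library was kept.

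**Figure D2:**
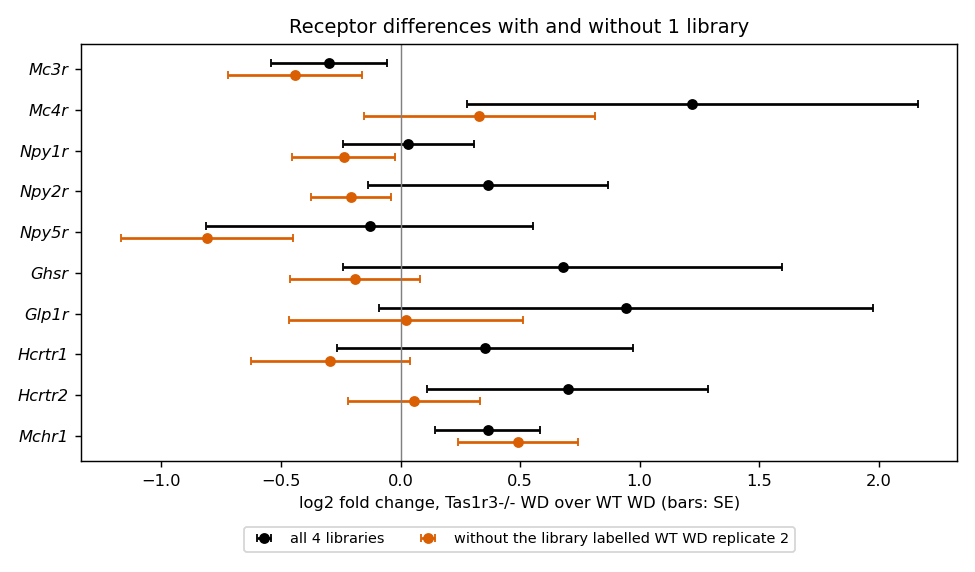
Fitted log2 difference of each receptor gene between Tas1r3-/- WD and WT WD (points) with its SE (bars), with all 4 libraries in black and without the library labelled WT WD replicate 2 in orange. For 8 of the 10 genes, all but Mc3r and Mchr1, the bars were wider with all 4 libraries, and Npy1r, Npy2r, Ghsr and Hcrtr1 passed from above 0 to below 0 when that library was left out.

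Levels of different receptors were compared per kilobase of the canonical GENCODE M39 transcript. Over the 4 libraries Mchr1 was highest at 6.28 ± 1.11 CPM per kb (SD, n = 4), followed by Npy2r at 4.96 ± 1.90, Hcrtr2 at 3.95 ± 1.75, Mc3r at 3.94 ± 0.622 and Npy1r at 3.89 ± 0.702 CPM per kb. The lower part of the order was Hcrtr1 at 2.67 ± 1.17, Npy5r at 2.32 ± 1.24, Ghsr at 1.43 ± 0.831, Mc4r at 1.27 ± 0.838 and Glp1r at 0.660 ± 0.455 CPM per kb. All neighbours in this order overlapped in their library ranges, a comparison that does not pair the genes within a library. Without the library labelled WT WD replicate 2, 3 pairs of neighbours did not overlap: Npy2r lay above Hcrtr2, Hcrtr2 above Npy1r, and Mc4r above Glp1r. Within a library, Glp1r ranked 10 in each of the 4 libraries. Mc4r ranked 9 in 3 libraries and 7 in Tas1r3-/- WD replicate 2, and Ghsr ranked 8 in 3 libraries and 9 there. Mchr1 ranked 1 in 3 libraries and 2 in WT WD replicate 1, where Npy2r was highest. Npy2r ranked 4 in the library labelled WT WD replicate 2. With the length of the longest coding transcript instead, ranks 3 to 7 changed places and Mc3r took rank 3, while Mchr1, Npy2r, Ghsr, Mc4r and Glp1r kept their ranks.

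**Figure D3:**
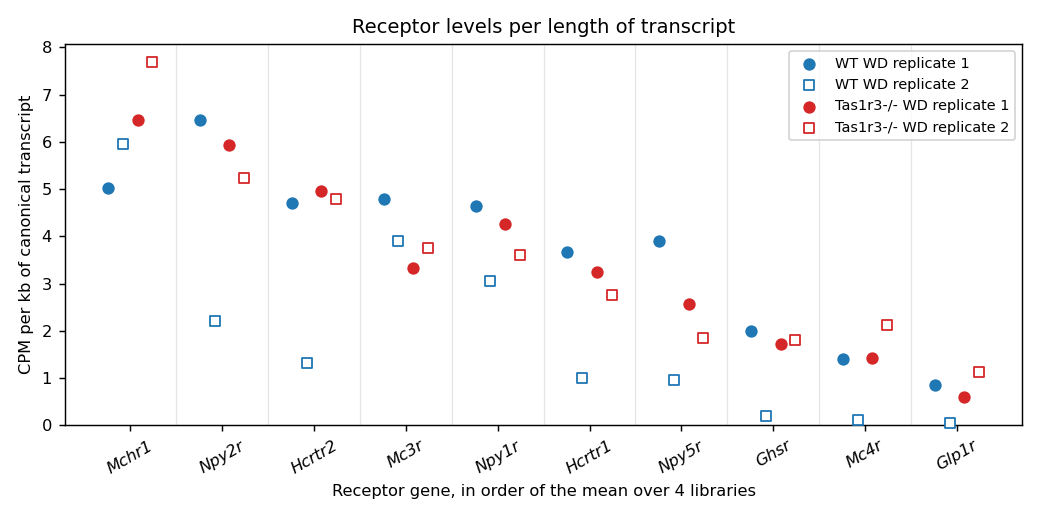
Level of each receptor gene in CPM per kb of its canonical transcript in each library, in order of the mean over 4 libraries, with colours and symbols as for the plot of CPM. The order runs from Mchr1, with a mean of 6.28, to Glp1r, with a mean of 0.660, and neighbouring genes overlap.

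Of the 10 receptors, 4 had estimated counts for more than 1 RefSeq transcript, and these estimates divide reads between transcripts that share most of their sequence. For Npy1r, NM_001358955 held 13.5% and 53.1% of the gene in the WT libraries and 23.3% and 11.3% in the knockout libraries, and NM_010934 held the rest. In estimated counts, NM_001358955 was highest in the library labelled WT WD replicate 2 at 39.4, where NM_010934 was lowest at 34.8. For Npy5r, NM_001358958 held 92.3% of that library's counts and 3.19% to 8.25% elsewhere. NM_001358957 held 78.5% of Npy5r in WT WD replicate 1, 10.6% and 44.4% in the Tas1r3-/- WD libraries and 3.71% in the library labelled WT WD replicate 2. NM_016708 held 18.3% and 3.95% in the WT libraries and 85.2% and 47.3% in the knockout libraries, and its log2 difference of 1.92 ± 1.22 was opposite in sign to that of the gene (edgeR adjusted p = 0.939 over 25699 transcripts). The 4 transcripts of Hcrtr1 changed places even between the Tas1r3-/- WD libraries, where NM_001163027 held 0.00895% of the counts in replicate 1 and 68.9% in replicate 2. The shares of Hcrtr2 were steadier, with NM_198962 at 80.1% and 84.4% in the WT libraries and at 75.3% and 63.2% in the knockout libraries. The 14 receptor transcripts tested with all 4 libraries had edgeR adjusted p-values between 0.939 and 0.988 over 25699 transcripts, so none was called. The share of all transcripts called is not given here, and transcripts were not refitted without a library. Gene sums were therefore used for all other values.

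**Figure D4:**
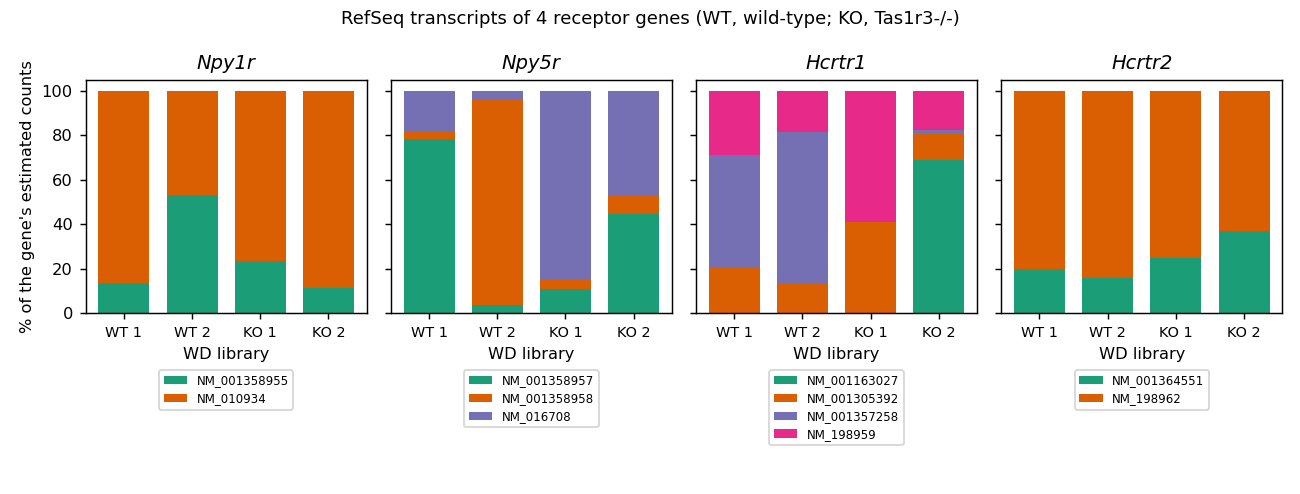
Share (%) of the estimated counts of Npy1r, Npy5r, Hcrtr1 and Hcrtr2 given to each RefSeq transcript (colours) in each library. The shares of Npy5r and Hcrtr1 differ between libraries of the same group, and the library labelled WT WD replicate 2 (WT 2) has the highest share of NM_001358955 for Npy1r and of NM_001358958 for Npy5r.

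The study examined CREB, a transcription factor that binds the cAMP response element, and some of these receptors raise or lower cAMP, so the promoter windows of the receptors were searched for that element. The RefSeq promoter table (GRCm38.p6) held 11 windows for 9 of the 10 genes. The full element, the palindrome TGACGTCA, was in 0 of the 11 windows, beside 1.79% of 32851 windows in the table. Its shorter core TGACG, or CGTCA on the other strand, was in 2 of the 11 windows, 1 of Mc3r and 1 of Hcrtr2, beside 20.8% of all windows. Both matches are shown because they are the only ones among the receptors, with the core in capitals. By exact match to GRCm39, the stretch of Mc3r lies at chr2:172090408-172090436 on the plus strand, across the annotated start of the gene with the core inside its only exon, and that of Hcrtr2 at chr9:76230893-76230921 on the minus strand, inside the GENCODE span of the gene.
Mc3r: tctcacatctagCGTCAagtcccacaacc
Hcrtr2: aggaacttttcaCGTCAttcccggctcca
Mc3r was lower and Hcrtr2 higher in both Tas1r3-/- WD libraries than in both WT WD libraries, and neither was called. A match of letters is a description and not a bound site.

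The genes of the peptides that act on these receptors were low in the library labelled WT WD replicate 2. Pomc, Agrp, Hcrt and Pmch are among the hypothalamus markers that set that library apart, so of the ligands only Npy adds to those markers. Of the 10 ligand genes listed, 5 were in the table, and Pyy, Ppy, Ghrl, Leap2 and Gcg were not among its rows. All 5 were lower in that library than in each other library, with a sum of 11.9 CPM there against 717 to 1078 CPM. Pmch, the precursor of melanin-concentrating hormone, was at 768 and 6.66 CPM in the WT libraries and at 373 and 559 CPM in the knockout libraries, while its receptor gene Mchr1 was not low in that library. Hcrt, the precursor of both orexins, was at 165 and 0.824 CPM in the WT libraries and at 63.0 and 93.3 CPM in the knockout libraries. Npy was at 26.3 and 1.32 CPM in the WT libraries and at 12.2 and 15.1 CPM in the knockout libraries. Among the libraries with hypothalamus markers, Pmch, Hcrt and Npy were thus highest in WT WD replicate 1. Agrp, the melanocortin inhibitor, was at 6.53 and 0.659 CPM in the WT libraries and at 5.30 and 4.91 CPM in the knockout libraries. It too was highest in WT WD replicate 1. Pomc was at 112 and 2.47 CPM in the WT libraries and at 343 and 45.3 CPM in the knockout libraries, and its highest value was in the library with the high sum of pituitary markers, the pituitary being another source of Pomc, and the part of those cells in its level was not tested. With edgeR 0 of the 5 ligands were called and 0 had an unadjusted p under 0.05. The median log2 difference of the ligands was 0.27, and -0.72 without the library labelled WT WD replicate 2. The median of the hypothalamus markers was -0.45 without that library. By ligand the log2 difference was then -1.08 ± 0.18 (SE) for Hcrt, -0.95 ± 0.21 for Npy and -0.72 ± 0.18 for Pmch. It was -0.35 ± 0.40 for Agrp and 0.80 ± 0.78 for Pomc.

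**Figure D5:**
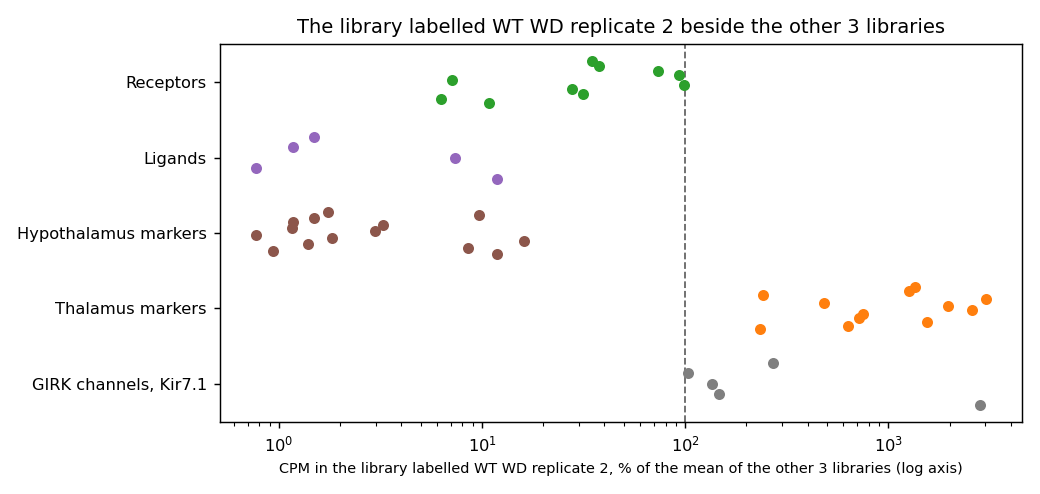
CPM in the library labelled WT WD replicate 2 as a percentage of the mean of the other 3 libraries (log axis), 1 point per gene, for the receptors, their ligands, hypothalamus and thalamus markers, and potassium channels that such receptors act on. The receptors spread from 6.30% for Glp1r to 98.4% for Mc3r, the ligands lie at or below 11.8%, and all thalamus markers lie above 100%. Pomc, Agrp, Hcrt and Pmch are drawn both as ligands and as hypothalamus markers. The 2 hypothalamus markers with 0 counts cannot be drawn on the log axis.

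The other genes of these pathways were read from the same comparison. Of the 91 pathway genes tested beside the receptors, edgeR called 0, and 2 had an unadjusted p under 0.05, while DESeq2 called 0 of them. Among genes for receptor accessory proteins and peptide processing, the mean in Tas1r3-/- WD was above that in WT WD for 5 of the 8 tested and below it for 3, with a median log2 difference of 0.28, and 0.15 without the library labelled WT WD replicate 2. Mrap2, an accessory protein of MC4R and other appetite receptors, was at 48.1 and 18.6 CPM in the WT libraries and at 47.3 and 59.0 CPM in the knockout libraries, and it too was lowest in the library labelled WT WD replicate 2. Pcsk1, the convertase that cuts POMC, was at 66.0 and 29.7 CPM in the WT libraries and at 71.3 and 76.8 CPM in the knockout libraries. Pcsk2 and Cpe, which act later in peptide maturation, went the other way in that library, with Pcsk2 at 679 CPM there against 304 to 350 CPM and Cpe at 2640 CPM against 1701 to 1780 CPM. Pam, the enzyme that amidates peptides, was at 208 CPM there against 399 to 407 CPM. Atrn, which encodes attractin, was at 154 and 176 CPM in the WT libraries and at 185 and 198 CPM in the knockout libraries.

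The list of other receptors of hypothalamic peptides showed the pattern of the 10 receptors in part. It also holds Ramp1, Ramp2 and Ramp3, which encode accessory proteins of receptors. Ramp3 is also among the thalamus markers, and Gpr50 of this list is among the hypothalamus markers. Of the 43 genes tested, 25 were at least 1.5-fold lower in the library labelled WT WD replicate 2 than in WT WD replicate 1, beside the 12.4% of all genes. At least 1.5-fold higher there were 6, beside 12.8%. The median log2 difference of the list was 0.42, and -0.00299 without that library. The 4 most abundant were Adcyap1r1, Ntsr2, Oprl1 and Ednrb, receptors of PACAP, neurotensin, nociceptin and endothelin, and each was lowest in that library. Sstr4, a somatostatin receptor, was at 5.32 and 7.25 CPM in the WT libraries and at 2.57 and 2.45 CPM in the knockout libraries, with a log2 difference of -1.32 and an unadjusted p of 0.0145. Oprk1, the kappa opioid receptor, was at 20.4 and 18.6 CPM in the WT libraries and at 27.2 and 26.8 CPM in the knockout libraries, with a log2 difference of 0.47 and an unadjusted p of 0.0330. Vipr2 was at 7.56 and 17.8 CPM in the WT libraries and at 5.30 and 5.98 CPM in the knockout libraries, with an unadjusted p of 0.0563. Without the library labelled WT WD replicate 2 the log2 difference was -1.08 ± 0.50 for Sstr4, 0.40 ± 0.17 for Oprk1 and -0.42 ± 0.37 for Vipr2, with edgeR adjusted p-values of 0.382, 0.354 and 0.667. Of the closest relatives of the 10 receptors, 5 were in the table, namely Prlhr, Gipr, Sctr, Glp2r and Npy6r, and only Prlhr had enough counts to be tested. Prlhr was at 2.40 and 0.165 CPM in the WT libraries and at 2.10 and 1.58 CPM in the knockout libraries.

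The genes of proteins through which the receptors signal went both ways in the library labelled WT WD replicate 2. Of the 30 genes of G proteins, arrestins and receptor kinases, 15 were lowest there, beside the 34.6% of all genes, and 12 were highest there, beside 33.8%. Their sum, to which Gnas gave the most, was 8320 CPM there against 8114 to 8354 CPM. Their median log2 difference between groups was -0.02, and -0.03 without that library. Gnas, the stimulatory subunit used by the melanocortin receptors and GLP1R, was at 3393 and 2793 CPM in the WT libraries and at 3312 and 3242 CPM in the knockout libraries. Gnao1 and Gnb1 were higher, and Gnai2 lower, in the library labelled WT WD replicate 2 than in the others. Gng3 at 370 CPM, Rgs16 at 159 CPM and Rgs7 at 70.2 CPM were all highest there, and their unadjusted p-values between groups were 0.0523, 0.0897 and 0.115. The GIRK channels, potassium channels that Gi-coupled receptors open, and Kir7.1 (Kcnj13), a channel that MC4R acts on, summed to 427 CPM there against 174 to 215 CPM. The median log2 difference of the 4 channels tested was -0.21, and 0.06 without that library, so its sign turned. Kcnj9 was at 120 and 304 CPM in the WT libraries and at 91.0 and 127 CPM in the knockout libraries, and Kcnj3 was at 44.9 and 75.3 CPM in the WT libraries and at 53.4 and 56.3 CPM in the knockout libraries. Kcnj5 at 22.8 CPM was also highest there, Kcnj6 was between 12.1 and 14.6 CPM in all 4 libraries, and Kcnj13, which the choroid plexus expresses as well, had 63 estimated counts there and 1 to 4.01 elsewhere.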

How the data were processed

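According to the submitters' notes and the study's methods, the authors used STAR within Partek Flow to align Ion Torrent reads of 4 hypothalamus libraries to mm39, and deposited estimated counts for 30930 RefSeq transcripts, unnormalized, each with at least 10 over all libraries. The design had assumed gene counts. Estimated counts of the 30891 transcripts that a RefSeq table paired with a gene gave 16339 genes and were rounded before the count models. The 39 unpaired transcripts, 0.347% to 2.49% of counts, were left out. Genes passing filterByExpr were fitted with edgeR 4.0.16 (R 4.3.3) by the quasi-likelihood test, with TMM scaling and Benjamini-Hochberg adjustment. A gene was called at a 1.5-fold change with an adjusted p under 0.05. The SE given with an edgeR log2 difference was derived from the test, as the absolute difference divided by the square root of its F statistic. Library ratios have exact binomial 95% intervals. Alternatives were DESeq2 1.42.0, limma-trend (limma 3.58.1), RLE or total-count scaling, other filters, a replicate block, single transcripts, and each library left out. Lengths and positions came from GENCODE M39, since the sources used here gave no RefSeq lengths, and figures from matplotlib 3.10.9.

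The receptors and all lists were chosen with earlier results of these data known. All receptors and ligands were named, as were, in each other pathway list, the 4 genes of highest mean CPM and the 3 of smallest unadjusted p. Mrap2, Kcnj13, Gpr50, Kl, Clic6, Map2, the Ramp genes and the list members at 0 counts were named after their values were seen. Marker lists are given by their sums, with leading genes for those that set a library apart. Lists for striatum (229 CPM in the library labelled WT WD replicate 2, 392 to 579 CPM elsewhere), cortex and hippocampus (623, 254 to 260), astrocytes (2486, 2666 to 2882), oligodendrocytes (6314, 5092 to 6165), ependyma and tanycytes (338, 247 to 258), microglia (274, 253 to 298) and endothelium (253, 216 to 221) were read in the same way. Simulated counts with 200 changed genes were used to check the fits. With the spread of these libraries edgeR recovered 57.5% of the changed genes, with 8 false calls. With a low spread it recovered 92.5%, with 7 false calls. The simulation gave all genes the same spread, so it does not measure the power for the receptors.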

Additional observations from a re-analysis of the deposited data

How the results depend on the processing

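Under the alternatives that kept all 4 libraries, 65 of 67 receptor values kept their direction and their lack of a call. Npy5r changed direction in the other 2, with 0.14 by limma-trend and with the replicate block. Sizes moved more than 1.5-fold in some: limma-trend gave a median of 0.56, Ghsr 1.32, Glp1r 1.49 and Hcrtr1 0.57, and the replicate block gave Ghsr 1.13 and Hcrtr1 0.54. Single transcripts gave -0.69 for NM_001358955 of Npy1r and 1.92 for NM_016708 of Npy5r, against gene values of 0.03 and -0.13. With 1 library left out in turn, the receptors called ranged from 0 to 6 and the pathway genes called from 0 to 47, both highest without WT WD replicate 1. There 31 of the 96 pathway genes tested were called higher and 16 lower in Tas1r3-/- WD, beside 14.3% of all genes called. The median log2 difference then ranged from -0.20 to 1.45. The number of receptors whose groups did not overlap rose when either WT library was left out. With fewer libraries in a group, overlap is less likely for any gene, so this rise is not a result about the receptors. Without the library labelled WT WD replicate 2 the number was 9, beside 74.9% of all genes. With all 4 libraries, 20.6% of all genes were above and 18.9% below without overlap. The share over all genes was not counted with other libraries left out. By receptor, the ranges that crossed 0 were -0.24 to 0.37 for Npy1r, -0.21 to 1.34 for Npy2r, -0.81 to 1.20 for Npy5r, -0.19 to 3.13 for Ghsr and -0.29 to 1.56 for Hcrtr1. The number of neighbours in the order of levels that did not overlap was 0 with all libraries and 3 without the library labelled WT WD replicate 2. A lone library in a group is assumed to vary like the other group.

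Libraries that shared a replicate number were not shown to be paired: their deviations from the group means correlated at 0.0859 across genes, with 2 pairs. With the replicate block the log2 difference of Npy5r was 0.0768, edgeR called 0 of the 10 receptors and 0 of 14344 genes, the median log2 difference was 0.53, and no call changed. At this depth the lowest receptor values rest on 2 counts.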
